A study of Mus musculus with 8 samples.

Results

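Molecular chaperones keep proteins folded, and the heat shock proteins are the chaperones named for their response to protein damage. The genes described here are the 81 rows of the deposited expression tables whose symbols name them as HSP90, HSP70, HSP110 or small heat shock proteins, as J-domain proteins (Dnaja, Dnajb, Dnajc), as the mitochondrial chaperonin, or as numbered subunits of the cytosolic chaperonin TRiC, out of 48431 rows in all. They were chosen by a rule on gene symbols, with pseudogene rows left out, and that rule used no measured value. The rule was set with earlier results of these data known. The tissue was mouse dorsal root ganglion (DRG), the cluster of sensory neuron cell bodies beside the spinal cord, with the glia and other cells around them. All 8 libraries came from wild-type animals of the SW strain given saline, 4 labelled male and 4 labelled female, and the labels give no age, no injury and no active drug. Each library measured RNA with a kit that reads near the 3′ end of each transcript, and nothing in the labels says whether animals were pooled, so p-values measure the spread between these 8 libraries.

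HSP70 proteins bind exposed hydrophobic stretches of unfolded proteins in a cycle of ATP use that J-domain proteins start and nucleotide exchange factors end. HSP90 takes over partly folded clients such as kinases and receptors, TRiC and the mitochondrial chaperonin fold proteins inside a barrel, and small heat shock proteins hold unfolding proteins in a soluble state without using ATP. On protein damage, heat shock factor 1 drives the inducible members through heat shock elements, repeats of GAA and TTC, while stress in the endoplasmic reticulum drives its own set through another element. Sensory neurons carry long axons, and constitutive chaperones are abundant in neurons without any stress.

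The libraries held 7497800 to 12155800 counted reads, and 3 reads, the limit of detection used here, were worth 0.247 to 0.400 CPM (reads scaled to a total of 1000000 in each library). The 2 libraries with replicate number 1 went against their sex labels: Xist, made from the inactive X chromosome, was 294 CPM in the library labelled male 1 and 0.27 CPM in the library labelled female 1, and Ddx3y, on the Y chromosome, was 0.855 CPM and 102 CPM in them. The other 6 libraries matched their labels. Counts of rows passing and the medians of some families are given over all 8 libraries and again without both replicate 1 libraries. Differences of single genes are over all 8 libraries unless the text says otherwise. Below, male and female libraries are named by label only. The tissue label was checked against marker genes: all 10 sensory neuron markers averaged at least 1 CPM, with Prph, which encodes the intermediate filament peripherin, at 569 to 2606 CPM, as did 9 Schwann and satellite glia markers, with the myelin basic protein gene Mbp at 1232 to 2791 CPM. The 10 central nervous system markers summed to 314 CPM in male 2 and to 12 to 22.6 CPM in the other 7 libraries, with Chat at 0 in 7 of the 8. Skeletal muscle markers were present in every library, with sums of 954 to 1957 CPM in the libraries labelled male and 511 to 2085 CPM in those labelled female. The sums include Pvalb, at 130 to 331 CPM, and were not taken as a measure of muscle RNA alone.

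The promoter windows of 4 members are printed because results below turn on these genes. Each runs from 250 bases before to 50 bases after a gene's start in RefSeq's annotation of GRCm38.p6, is written on the gene's own strand, and has in capitals the heat shock element units (Hspe1, Hspa1a, Hspa1b) or the endoplasmic reticulum stress element (Hspa5). They are Hspe1 at chr1:55087898-55088197 on the plus strand, Hspa1a at chr17:34972107-34972406 and Hspa1b at chr17:34959189-34959488, both on the minus strand, and Hspa5 at chr2:34771840-34772139 on the plus strand.
Hspe1: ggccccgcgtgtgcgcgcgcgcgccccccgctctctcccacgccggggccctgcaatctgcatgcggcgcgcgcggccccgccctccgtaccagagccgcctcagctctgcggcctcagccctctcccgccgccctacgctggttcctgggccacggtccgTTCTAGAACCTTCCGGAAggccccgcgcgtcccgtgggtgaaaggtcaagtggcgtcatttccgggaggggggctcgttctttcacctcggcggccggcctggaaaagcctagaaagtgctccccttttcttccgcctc
Hspa1a: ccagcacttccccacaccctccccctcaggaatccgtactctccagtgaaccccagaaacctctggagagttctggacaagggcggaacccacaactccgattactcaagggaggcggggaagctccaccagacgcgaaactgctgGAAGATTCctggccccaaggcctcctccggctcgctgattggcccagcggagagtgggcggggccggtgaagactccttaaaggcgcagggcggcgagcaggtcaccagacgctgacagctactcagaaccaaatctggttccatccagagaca
Hspa1b: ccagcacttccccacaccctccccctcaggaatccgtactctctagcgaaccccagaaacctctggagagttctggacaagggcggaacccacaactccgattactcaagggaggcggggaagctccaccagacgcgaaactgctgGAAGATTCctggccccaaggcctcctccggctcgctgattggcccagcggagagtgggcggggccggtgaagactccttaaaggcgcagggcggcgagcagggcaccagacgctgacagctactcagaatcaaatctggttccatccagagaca
Hspa5: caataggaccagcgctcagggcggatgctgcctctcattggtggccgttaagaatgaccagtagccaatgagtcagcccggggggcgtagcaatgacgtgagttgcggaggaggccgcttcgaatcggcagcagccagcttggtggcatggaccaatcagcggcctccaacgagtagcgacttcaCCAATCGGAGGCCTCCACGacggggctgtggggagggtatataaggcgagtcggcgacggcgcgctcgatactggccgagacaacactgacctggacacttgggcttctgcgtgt

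RefSeq windows were matched for 64 of the members, with 83 windows in all, and motifs were searched on both strands. The members without a matched window, Hsp90aa1, Hsp90ab1, Hspa8 and both Hspa14 rows among them, were not searched. The element of 3 alternating units (GAA, TTC and GAA, each set apart by 2 bases) was found in windows of 4 member genes (Hspd1, Hspe1, Hsph1 and Dnajb6), and 0.662% of the 27025 genes with a window held it. Hspd1 and Hspe1 are both counted for the same stretch of DNA, which their windows share. The shorter pair of units, GAANNTTC, which lies inside the longer motif, was found in 15 of the 64 and in 9.04% of all genes with a window. The endoplasmic reticulum stress element (CCAAT and CCACG set apart by 9 bases) was found in 3 member genes, Hspa5, Hsp90b1 and Dnajc3, and in 0.137% of all. A match of each on the gene's own strand is given for comparison, since the named letters match and the spacer letters differ; Hsp90b1 holds another on the opposite strand, at bases 144 to 162 of its window.
Hspa5: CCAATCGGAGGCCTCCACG
Hsp90b1: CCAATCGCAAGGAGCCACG
Dnajc3: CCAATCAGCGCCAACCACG
A match is a run of letters in a window, and binding by any factor was not measured.

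Because reads come from near the 3′ end whatever the length of the transcript, CPM levels are set side by side between genes here without division by length. Of the 81 rows, 8 averaged at least 1000 CPM, 15 lay between 100 and 1000, 33 between 10 and 100 and 14 between 1 and 10. These 70 rows averaged at least 1 CPM and were tested among 14508 rows. The other 11 fell under that filter (Hspa1l, Hspb3, Hspb9, Cct6b, Dnajb7, Dnajb8, Dnajb13, Dnajc4, Dnajc5b, Dnajc5g and Dnajc22), and Dnajb8 and Dnajc5g had no read in any library. Together the members took 1.98%, 1.98%, 2.76% and 2.82% of counted reads in male 1 to 4 and 3.52%, 2.35%, 3.84% and 3.58% in female 1 to 4. That share was lowest in male 1 and male 2, and female 2 lay below male 3 and male 4, so the groups overlapped. A single gene, Hsp90ab1, made up 32.5% to 46.2% of the members' reads.

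**Figure D1:**
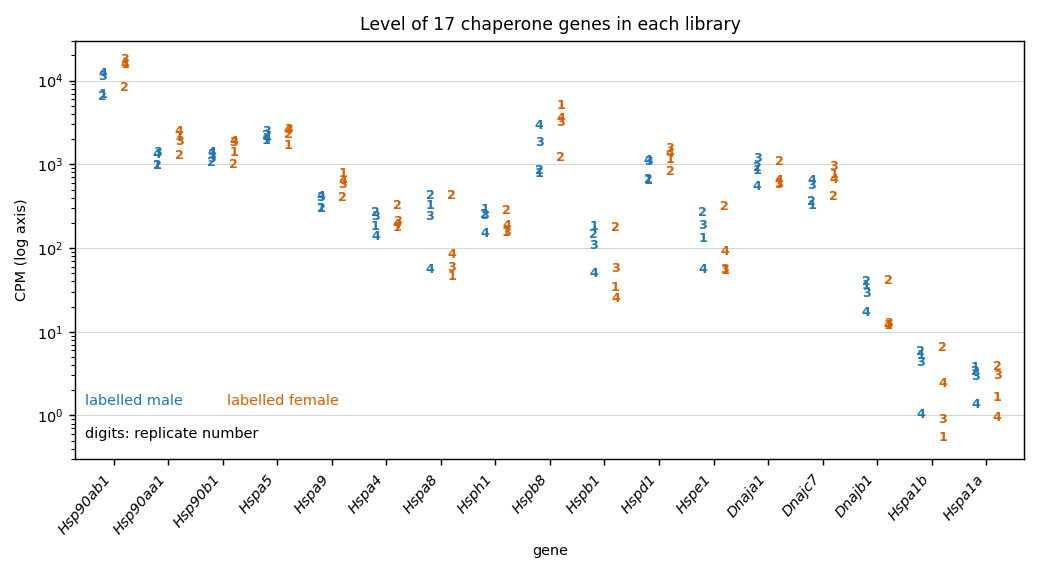
Level of 17 chaperone genes in each of the 8 libraries, in CPM on a log axis; each digit is a library's replicate number, blue for libraries labelled male and orange for those labelled female. Hsp90ab1 sits highest at 6445 to 17746 CPM, and Hspa1a and Hspa1b lie at the bottom, at 0.541 to 6.42 CPM.

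The stress-inducible cytosolic HSP70 genes were among the lowest of the tested members. Hspa1a, whose transcript is scarce until heat shock factor is active, gave 31, 31, 30 and 13 reads in male 1 to 4, or 3.79, 3.37, 2.94 and 1.33 CPM, and 18, 47, 24 and 7 reads in female 1 to 4, or 1.62, 3.87, 3.02 and 0.934 CPM. Hspa1b, its near-identical neighbour on chromosome 17, gave 5.25, 5.76, 4.31 and 1.03 CPM in male 1 to 4 and 0.541, 6.42, 0.882 and 2.40 CPM in female 1 to 4. Both were highest in female 2, and the groups overlapped over most of their range. Their promoter windows differ at 4 of 300 bases. The 3′ ends of their transcripts were not compared, and how reads that match both copies were counted is not given in the sources used here, so each level is uncertain. By limma, the log2 difference between labels (female minus male, on log2(CPM + 1), as in all such values below) was −0.24 (SE 0.35, adjusted p = 0.736) for Hspa1a and −0.66 (SE 0.52, adjusted p = 0.545) for Hspa1b. For a single library the counting error is wide: the 7 reads of Hspa1a in female 4 have an exact 95% binomial (Clopper-Pearson) interval of 0.375 to 1.92 CPM, which covers counting error only. Hsf1, the factor that drives both, was itself at 0.126 to 2.08 CPM with a mean of 0.927, under the filter. Hsf2, another heat shock factor, was measured at 175, 146, 219 and 333 CPM in male 1 to 4 and at 422, 156, 515 and 378 CPM in female 1 to 4.

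HSP90 was the most abundant family, with 0.846% to 2.15% of counted reads. Hsp90ab1, the constitutive cytosolic form (chr17:45567775-45573271, minus strand), was 6865, 6445, 11091 and 12158 CPM in male 1 to 4 and 15387, 8313, 17746 and 15584 CPM in female 1 to 4. The 3 highest libraries were female 1, 3 and 4, and female 2 lay within the male range. The means were 9140 ± 2907 and 14258 ± 4105 CPM (SD, n = 4 each), and the log2 difference of 0.64 (SE 0.39) did not pass by limma (adjusted p = 0.473). Hsp90aa1, the inducible cytosolic form, was 981, 962, 1389 and 1329 CPM in male 1 to 4 and 2175, 1278, 1861 and 2466 CPM in female 1 to 4, again with female 2 alone inside the male range. Its log2 difference was 0.72 (SE 0.28, unadjusted p = 0.0246, adjusted p = 0.446 by limma). Hsp90b1, the form of the endoplasmic reticulum, was 1002 to 1858 CPM, with its 2 highest values in female 3 and female 4. The ratio of Hsp90aa1 to Hsp90ab1 kept within 0.105 to 0.158 in the 8 libraries, and its log2 difference between labels of 0.08 was within the spread (exact two-sided permutation p = 0.657 over 70 assignments, also 0.657 after adjustment over 3 ratios; the smallest p these can give is 0.0286).

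Within HSP70, Hspa5 and Hspa9 had the highest means, though cytosolic Hspa8 was above Hspa9 in male 1, male 2 and female 2. Hspa5, or BiP, the HSP70 of the endoplasmic reticulum, was 1943, 2239, 2487 and 2038 CPM in male 1 to 4 and 1662, 2261, 2579 and 2539 CPM in female 1 to 4. It varied 1.55-fold over all libraries, with male and female values interleaved and a log2 difference of 0.04 (SE 0.25, limma adjusted p = 0.946). Hspa9, or mortalin, which pulls proteins into mitochondria, was 300, 297, 405 and 411 CPM in male 1 to 4 and 768, 400, 568 and 625 CPM in female 1 to 4. Only female 2 lay below the highest male library, and the log2 difference was 0.72 (SE 0.25, unadjusted p = 0.0143, adjusted p = 0.446 by limma). Hspa13, a microsomal HSP70-like protein, was 28.2, 16.9, 18.6 and 25.2 CPM in male 1 to 4 and 9.37, 19.9, 12 and 11.6 CPM in female 1 to 4, the opposite order. Its log2 difference was −0.73 (SE 0.27, unadjusted p = 0.0205, adjusted p = 0.446 by limma).

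The range of Hspa8, or HSC70, was noticed after its values were seen. This constitutive cytosolic HSP70, which also uncoats clathrin vesicles, is described by level apart from a ratio test. It was 322, 420, 237 and 55.8 CPM in male 1 to 4 and 45.2, 429, 59.2 and 83.9 CPM in female 1 to 4, a 9.48-fold range in which male 1 to 3 and female 2 were all above the other 4. Small nucleolar RNA genes lie within it on the same strand, and their part in its counts was not tested. Its ratio to Hsp90ab1 ran from 0.00294 in female 1 to 0.0651 in male 2, and the log2 difference in that ratio between labels was −1.69 (exact two-sided permutation p = 0.257, 0.514 after adjustment over 3 ratios). Hsph1, the HSP110 form that exchanges nucleotide on HSP70, was 286, 249, 246 and 150 CPM in male 1 to 4 and 152, 281, 154 and 184 CPM in female 1 to 4, with male 4 and female 1, 3 and 4 the 4 lowest. Hspa14, a ribosome-linked HSP70, has 2 rows of overlapping annotation, at means of 3.16 and 55.2 CPM, and reads between them cannot be told apart. The deposited tables name both Hspa14, but GENCODE M21 names the row at 3.16 CPM Gm45902.

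The small heat shock proteins did not share an order of libraries. Hspb8, a partner of Bag3 in selective autophagy (chr5:116408491-116422864, minus strand), was 787, 837, 1799 and 2934 CPM in male 1 to 4 and 5053, 1192, 3129 and 3506 CPM in female 1 to 4. Its highest library was female 1 and its lowest male 1, the pair whose sex transcripts went against their labels. The log2 difference was 1.06 (SE 0.52, limma adjusted p = 0.446) over 8 libraries and 0.52 (SE 0.57, adjusted p = 0.946) without both replicate 1 libraries. Hspb1, or HSP27 (HSP25 in mouse), which binds actin and is induced in injured sensory neurons, was 178, 146, 107 and 49.8 CPM in male 1 to 4 and 34.1, 175, 57.3 and 24.7 CPM in female 1 to 4. Here female 2 was close to the highest male library and the other 3 female libraries near or below male 4, with a log2 difference of −0.99 (SE 0.56, limma adjusted p = 0.463). Hspb2, a muscle-enriched member, was 12.3 to 17.3 CPM in libraries labelled male and 15.6 to 29.5 CPM in those labelled female. Hspb6 was 8.43 CPM in male 1 and 0.126 to 2.47 CPM in the other 7. Cryab, alpha B-crystallin, is a small heat shock protein by family though its symbol kept it outside the members; it was 574, 608, 467 and 146 CPM in male 1 to 4 and 86.4, 634, 105 and 150 CPM in female 1 to 4, and it overlaps Hspb2 on the opposite strand. The ratio of Cryab to Hspb2 was 27.1 to 49.4 in male 1 to 3 and female 2 and 3.57 to 8.81 in the other 4 libraries. Skeletal muscle also makes Cryab, Hspb2 and Hspb6, and Acta1, the muscle actin gene, was 112 to 624 CPM over the libraries; whether muscle RNA contributed was not tested.

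Hspd1 and Hspe1 encode the barrel (HSP60) and the lid (HSP10) of the mitochondrial chaperonin and stand head to head on chromosome 1, where their annotated genes overlap by 112 bases. The Hspe1 window printed above shares 285 bases with a Hspd1 window of RefSeq, and both hold the same heat shock element, at bases 162 to 179 of the Hspe1 window. The other Hspd1 window shares 4 bases with the Hspe1 window and holds no match to either heat shock motif. Hspd1 was 639, 658, 1093 and 1115 CPM in male 1 to 4 and 1139, 832, 1531 and 1363 CPM in female 1 to 4. Hspe1 was 130, 266, 185 and 54.9 CPM in male 1 to 4 and 53.7, 317, 56.0 and 90.3 CPM in female 1 to 4. Hspd1 was lowest in male 1 and male 2 and next lowest in female 2, while Hspe1 was highest in female 2 and male 2. Their ratio was 4.92, 2.48, 5.90 and 20.3 in male 1 to 4 and 21.2, 2.62, 27.4 and 15.1 in female 1 to 4, and the labels overlapped. The log2 difference of the ratio between labels was 0.99 (exact two-sided permutation p = 0.343, 0.514 after adjustment over 3 ratios), and 0.62 without both replicate 1 libraries (exact p = 0.7, the smallest possible being 0.1).

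**Figure D2:**
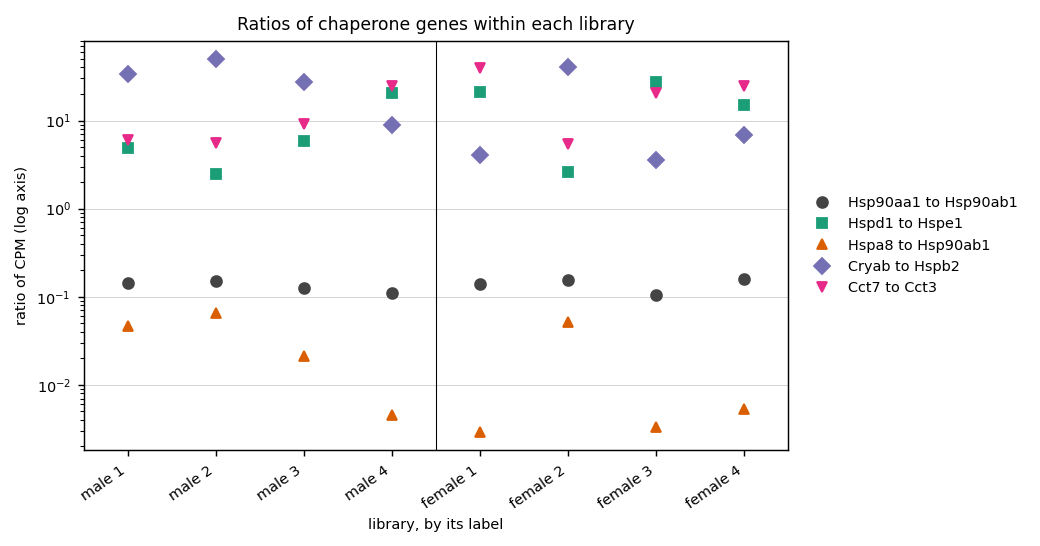
Ratio of CPM values within each library, on a log axis, for 5 pairs of chaperone genes marked by symbol, with the libraries in order of label along the horizontal axis and a line between the labels. The ratio of Hsp90aa1 to Hsp90ab1 stays between 0.105 and 0.158, whereas Hspd1 to Hspe1 runs from 2.48 to 27.4 and Hspa8 to Hsp90ab1 from 0.00294 to 0.0651.

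TRiC is a double ring built from equal numbers of 8 different subunits, of which the members cover all but Tcp1, and folds actin and tubulin. Cct7 was the highest subunit in 7 of the 8 libraries, at 870 to 1921 CPM, with Cct8 highest in male 1, and Cct2 was the lowest numbered subunit tested in every library, at 25.4 to 109 CPM. Among the 7 numbered subunits tested, the gap between the highest and the lowest was 7.11-fold in male 1 and 63.0-fold in female 1. Tcp1, outside the members by its symbol, was 33.2 to 55.1 CPM. It was below Cct2 in male 1 to 4 and female 2 and above it in female 1, 3 and 4. In male 1 it was 42.5 CPM against 109 CPM for Cct2, so the gap over all 8 subunits was wider there than 7.11-fold. Cct5 was 165, 123, 195 and 223 CPM in male 1 to 4 and 335, 173, 444 and 293 CPM in female 1 to 4. Female 2 alone lay inside the male range, and the log2 difference was 0.77 (SE 0.30, unadjusted p = 0.0262, adjusted p = 0.446 by limma). Cct6a was 220 to 293 CPM in male libraries and 267 to 444 CPM in female libraries (log2 difference 0.50, unadjusted p = 0.0444, adjusted p = 0.446 by limma). Cct2, Cct3 and Cct4 had the opposite order, so that the ratio of Cct7 to Cct3 was 5.45 to 9.23 in male 1 to 3 and female 2 and 20.4 to 39.1 in the other 4 libraries. Transcript levels of these subunits, which act in equal numbers, did not keep one proportion across these libraries.

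The J-domain proteins were the largest group, 45 rows of which 38 were tested. In class A, close relatives of bacterial DnaJ, Dnaja1 and Dnaja2 led with means of 797 and 677 CPM. Dnaja1 was 844, 910, 1171 and 548 CPM in male 1 to 4 and 593, 1086, 576 and 646 CPM in female 1 to 4, with female 2 apart from the other female libraries. Dnaja4 was 8.19, 7.18, 12.5 and 14.9 CPM in male 1 to 4 and 17.8, 9.79, 32.5 and 22.3 CPM in female 1 to 4 (log2 difference 0.82, SE 0.35, unadjusted p = 0.0401, adjusted p = 0.446 by limma). Female 2 was the one female library below the highest male library. Dnaja3, the mitochondrial form, was 17 to 17.9 CPM in male 1 to 3 and female 2 and 8.14 to 9.85 CPM in the other 4.

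In class B, Dnajb6, which holds back polyglutamine aggregation, had the highest mean, at 109 to 216 CPM, with Dnajb14 above it in male 1 (log2 difference 0.17, limma adjusted p = 0.736). Dnajb1, or HSP40, the cytosolic partner of inducible HSP70, was 11.7 to 41.0 CPM. Dnajb9, an endoplasmic reticulum J protein that represses the stress sensor Ire1, was 19.9, 20.8, 11.5 and 8.41 CPM in male 1 to 4 and 3.52, 14.0, 7.81 and 6.0 CPM in female 1 to 4. The 3 lowest values were all in libraries labelled female, with a log2 difference of −0.92 (SE 0.39, unadjusted p = 0.0395, adjusted p = 0.446 by limma). The lowest was in female 1, whose sex transcripts went against its label. Without both replicate 1 libraries the log2 difference was −0.49 (SE 0.41). Dnajb5 had a like order, at 7.08 to 12.6 CPM in male libraries and 2.07 to 10.1 CPM in female libraries (−0.88, SE 0.37, adjusted p = 0.446 by limma). Dnajb11, which serves BiP, was among the steadiest members, at 26.8 to 36.1 CPM.

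Class C holds J proteins tied to particular tasks. Dnajc7, which carries clients between HSP70 and HSP90, had the highest level, 320 to 641 CPM in male libraries and 416 to 955 CPM in female libraries (log2 difference 0.56, limma adjusted p = 0.461). Dnajc2, or zuotin, which sits on ribosomes, was 87.0, 77.7, 109 and 101 CPM in male 1 to 4 and 120, 106, 151 and 149 CPM in female 1 to 4 (0.48, SE 0.20, unadjusted p = 0.0359, adjusted p = 0.446 by limma). Dnajc18 was 47.8 to 84.8 CPM in male libraries and 24.3 to 67.7 CPM in female libraries (−0.79, SE 0.32, unadjusted p = 0.0327, adjusted p = 0.446 by limma). In each of these genes female 2 lay inside the male range. Dnajc5, the cysteine string protein of synaptic vesicles, was 31.0 to 109 CPM, and Dnajc6, or auxilin, which brings HSC70 to clathrin coats, was 9.92 to 41.3 CPM. Dnajc12 varied 10.4-fold, from 2.77 CPM in female 3 to 28.7 CPM in male 1. Dnajc10, a disulfide reductase of the endoplasmic reticulum, was at the other end, at 71.9 to 84.1 CPM, a 1.17-fold range.

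**Figure D3:**
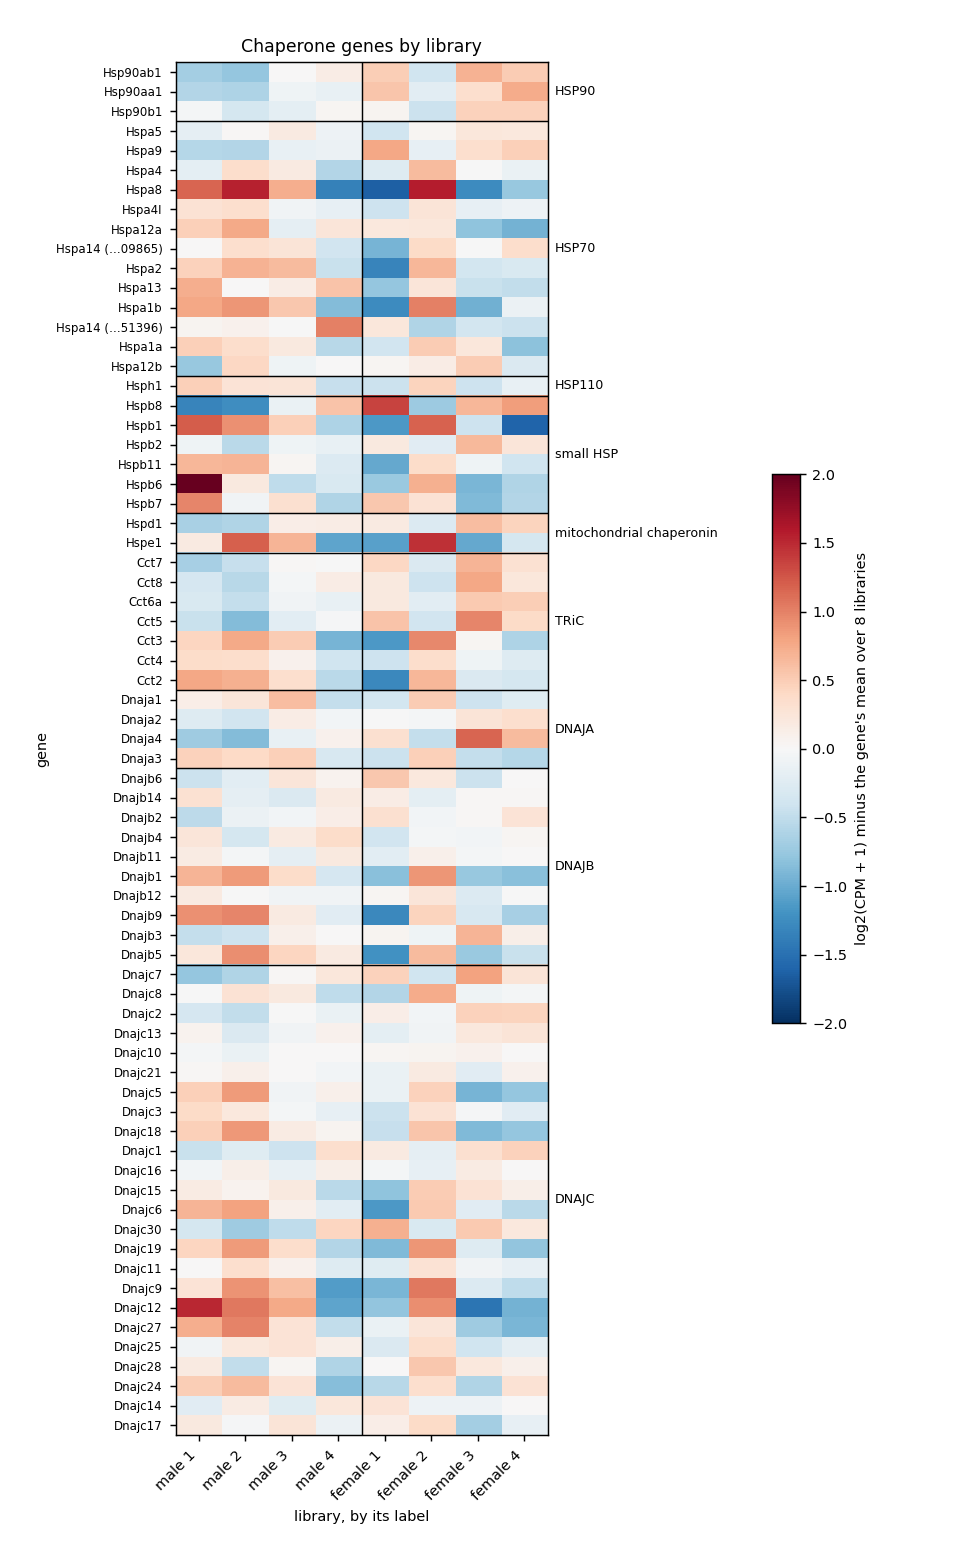
Level of each of the 70 tested members in each library, as the log2(CPM + 1) difference from the gene's own mean over the 8 libraries, with rows grouped by family and colours capped at 2 in either direction. Many rows, Hspa8 and Hspe1 among them, are above their mean in male 1 to 3 and female 2 and below it in the other 4 libraries, and fewer, Hsp90ab1 among them, run the other way.

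By label, no member passed an adjusted p of 0.05 in limma's test over 8 libraries (0 of 70), and none of the 14508 rows did either (0%). At an unadjusted p of 0.05, 10 of 70 members (14.3%) were past the threshold, against 11.0% of all rows. Of these, Hspa9, Hsp90aa1, Cct5, Dnajc2, Dnaja4 and Cct6a were the 6 with the higher female mean, where 2.74% of all rows were, and Hspa13, Dnajc18, Dnajb5 and Dnajb9 the 4 with the lower, where 8.25% were. No member kept the 4 libraries of each label apart, against 4.22% of all rows. The split depended on scaling: by median ratio scaling 12 members had the higher female mean and 1 the lower at that unadjusted threshold, against 6.27% and 4.01% of all rows, and by TMM scaling 10 and 2, against 5.85% and 4.43%. In CPM, the female mean on the log scale was higher in 29 of 70 members (41.4%) and in 32.5% of all rows, and by median ratio scaling in 36 members (51.4%) and 48.5% of all rows. The median log2 difference was −0.10 over the members and −0.18 over all rows, and median ratio scaling moved the latter to −0.02, so single differences are read relative to that shift.

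Families were assigned by symbol alone, so Hspa4 and Hspa4l count as HSP70 and Hspb11 as a small heat shock protein. By family, the median log2 difference was 0.64 for HSP90 (3 of 3 members above 0) and 0.39 for TRiC (4 of 7). It was 0.01 for class A J proteins (2 of 4) and −0.01 for the mitochondrial chaperonin (1 of 2). It was −0.04 for class B (3 of 10), −0.07 for class C (10 of 24), −0.24 for HSP70 (4 of 13), −0.28 for Hsph1 alone and −0.44 for the small heat shock proteins (2 of 6). Without both replicate 1 libraries the medians were nearer 0 for most, at 0.47 for HSP90, 0.34 for TRiC, −0.04 for HSP70 and −0.12 for the small heat shock proteins. In that comparison 0 of 70 members passed the adjusted threshold, against 6 of all rows (0.0414%). Of those 6 rows, 5 were the sex transcripts Xist, Ddx3y, Eif2s3y, Uty and Kdm5d. The members past the unadjusted threshold over 8 libraries had these log2 differences without both replicate 1 libraries. They were 0.51 for Hspa9, 0.57 for Hsp90aa1, 0.69 for Cct5, 0.49 for Dnajc2, 0.76 for Dnaja4 and 0.50 for Cct6a. For Hspa13, Dnajc18, Dnajb5 and Dnajb9 they were −0.48, −0.74, −0.69 and −0.49. A single member, the Hspa14 row at the lower level (Gm45902 in GENCODE M21), had an unadjusted p of 0.0424 and an adjusted p of 0.946 by limma. Of all rows, 2.43% were past the unadjusted threshold. The libraries of each label stood apart in 2 of 70 members, against 7.6% of all rows.

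**Figure D4:**
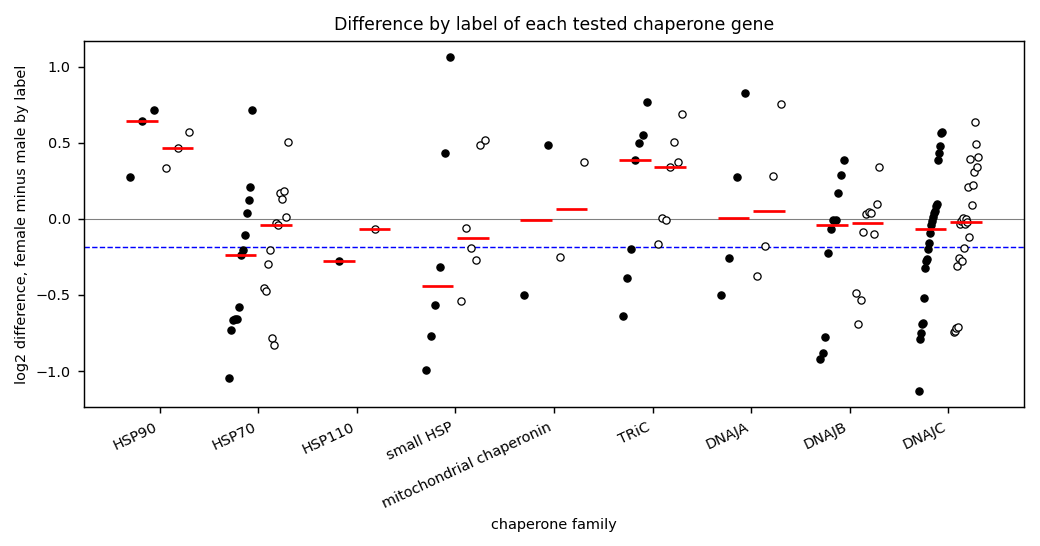
Log2 difference (female minus male by label, on log2(CPM + 1)) of each tested member, by family; filled points use all 8 libraries, open points leave out both replicate 1 libraries, red bars are family medians and the dashed line is the median of all tested rows, −0.18. All 3 HSP90 genes lie above 0, while the other families with more than 1 member hold values on both sides.

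The count moved with the libraries used. Without female 2, 11 of 70 members passed an adjusted p of 0.05 by limma, against 9.31% of all rows. Of these, 4 had the higher female mean (Hspa9, Hsp90aa1, Cct5 and Dnaja4), as 1.67% of all rows did, and 7 the lower (Hspa13, Dnajc18, Dnajb5, Dnajb9, Dnajc5, Dnajb1 and Hspb1), as 7.64% did. With weights for each library estimated from the data, 31 members passed, against 30.0% of all rows, and all 11 were among them. Female 2 had the lowest of those weights. Both fits hold the 2 replicate 1 libraries whose sex transcripts went against their labels. With these left out as well, 0 of 70 members passed without female 2, against 0.0345% of all rows, and 0 of 70 with array weights, against 0.0414%.

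Of the 70 tested members, 36 followed either of 2 opposite orders of libraries that the labels do not give, noticed after the values were seen and described here without a test. In 24 of 70 members (34.3%) male 1, 2 and 3 and female 2 were the 4 highest libraries, as in 23.1% of all rows, and in 12 members (17.1%) male 4 and female 1, 3 and 4 were, as in 10.2% of all rows. The other 34 members followed neither order, as did 66.7% of all rows. The first set holds Hspa8, Hspa1b, Hsph1, Hspb1, Hspe1, Cct2, Cct3, Cct4, Dnaja1 and Dnajb1, and the second Hsp90ab1, Hsp90b1, Hspa9, Hspb8, Hspd1, Cct5 and Cct8. Marker sums moved with this order: sensory neuron markers summed to 6442, 5341, 9411 and 11202 CPM in male 1 to 4 and 14837, 6928, 15136 and 12296 CPM in female 1 to 4, and the 9 glial markers to 5932, 7631, 5699 and 3717 CPM and 2631, 6169, 3099 and 4046 CPM. The neuron sum was not shared by each marker, since Uchl1 was 1551 to 9133 CPM with its highest value in female 1, where Calca, at 106 to 641 CPM, had its lowest. In bulk tissue, fewer cells of a type and less RNA per cell cannot be told apart, and the part of cell makeup in the chaperone levels was not tested. The longest coding transcript had a median length of 2587 bases in the first set of members and 2472 bases in the second, and 2551 and 3639 bases in the same sets over all rows. The median range from the lowest to the highest library was 2.58-fold over the members and 2.60-fold over all rows.

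The partners of the chaperones, taken from lists by role, gave no row past the adjusted threshold either over the 8 libraries (0 of 63). Without both replicate 1 libraries 0 of the 63 passed as well. Without female 2, 7 of the 63 passed by limma, Cdc37, Calr and Hsf2 among them, against 9.31% of all rows. With array weights 29 did, against 30.0% of all rows, and both these fits hold the replicate 1 libraries. Of 23 HSP90 co-chaperones, 10 had a log2 difference above 0 (median −0.17), of 14 HSP70 co-chaperones 4 did (median −0.17), of 10 TRiC partners and prefoldin subunits 3 did (median −0.16), and of 11 lectin chaperones and disulfide isomerases of the endoplasmic reticulum 5 did (median −0.02). Cdc37, which brings kinases to HSP90, was 28.6, 30.6, 45.2 and 44.9 CPM in male 1 to 4 and 81.0, 42.9, 77 and 71.8 CPM in female 1 to 4, with female 2 alone below the highest male library. Its log2 difference was 0.84 (SE 0.26, unadjusted p = 0.00763, adjusted p = 0.446 by limma). Ptges3, or p23, which closes the HSP90 clamp, was 277 to 680 CPM and 345 to 823 CPM (0.65, limma adjusted p = 0.458), and St13, or Hip, which holds HSP70 in its bound state, was 268 to 459 CPM and 319 to 633 CPM (0.53, limma adjusted p = 0.452). Bag2, an exchange factor of HSP70, was 2.06 to 9.03 CPM and 0.811 to 4.94 CPM (−0.90, limma adjusted p = 0.448). Calr, the lectin chaperone calreticulin, was 311 to 596 CPM and 469 to 1030 CPM (0.72, SE 0.29, limma adjusted p = 0.446), and Pdia3, its disulfide isomerase partner, 593 to 794 CPM and 386 to 761 CPM (−0.25, limma adjusted p = 0.605). Pfdn5, a subunit of prefoldin, which hands actin and tubulin to TRiC, was 240 to 301 CPM and 273 to 441 CPM (0.48, limma adjusted p = 0.446). In each of the last 6, the male range stands first and the groups overlapped.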

How the data were processed

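Total RNA from DRG was rRNA depleted and made into 3′ end libraries, per the labels' protocols, and the submitters' processing notes list Cufflinks 2.2.1, Bowtie2 2.2.9, TopHat2 2.1.1 and FastQC 0.11.5, with the builds GRCm38.p4 and mm10. The strand setting of the counting is not given in the sources used here, and 45 of the 81 members overlap another annotated gene. The authors deposited 2 tables, one per sex, of values named TPM, but these behave as CPM: each library sums to 1000000 and, below 200 reads, 98.2% to 98.5% of values are whole multiples of 1 step within 0.05 reads. From that step came the counted reads. Samples were grouped by their labelled sex.

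The tables were joined by gene ID. Rows averaging at least 1 CPM were fitted together as log2(CPM + 1) with limma 3.58.1 in R 4.3.3 (moderated test with variance trend, two-sided, Benjamini-Hochberg adjustment over 14508 rows). Fold changes on this scale understate those of low genes. Ratios were tested by exact permutation. The fit was checked on simulated data. Gene positions came from GENCODE M21 and promoters from RefSeq. Members, lists and tests were chosen with earlier results of these data known. Test values were printed for the 2 members per family with the smallest p, the 2 with the highest mean, Hspa1a, Hspa1b, and the same 2 choices once per partner list. Left out were 11 pseudogene rows, the highest at a mean of 0.629 CPM, and 1 glial marker is not reported here. Alternatives covered the pseudocount, filter, scaling, variance model, weights, replicate number and libraries left out.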

Additional observations from a re-analysis of the deposited data

Results flagged for a closer look

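In 82 groups of 4 libraries, the gap from a library to its nearest neighbour was taken as a share of the group's whole range. In 7 groups such a share was above Dixon's 95% critical value. Chance alone gives that in about 1 group in 20 where values are normally distributed. The gaps are on CPM or the plain ratio. On the log scale of the tests above the shares differ, and they were not looked at there. In 5 of the 7 groups on the CPM or plain ratio scale, the library was female 2 among the libraries labelled female. Its Hspe1 level was 317 CPM against 53.7 to 90.3 CPM in the other 3 (gap share 0.861), its Dnaja1 level 1086 CPM against 576 to 646 CPM (0.862), its Dnaja3 level 17.9 CPM against 8.14 to 9.10 CPM (0.900) and its Cryab level 634 CPM against 86.4 to 150 CPM (0.884). Its ratio of Hspa8 to Hsp90ab1 was 0.0516 against 0.00294 to 0.00538 (0.95). Among the libraries labelled male, Dnaja3 was 9.85 CPM in male 4 against 17 to 17.8 CPM in the other 3 (0.890), and Hspb2 was 12.3 CPM in male 2 against 16.5 to 17.3 CPM (0.850). The groups looked at share libraries, so the 7 are not independent of each other.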

How the results depend on the processing

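With array weights, 31 members and 4356 rows passed, and leaving out 1 library gave 0 to 11 members and 0 to 1351 rows; the highest counts came without female 2, and with both replicate 1 libraries also left out that fit called 0 members and 5 rows; the cause was not tested. Without both replicate 1 libraries 6 rows passed, and also without male 2 it was 4. Leaving out 1 more of the 6 libraries gave 3 to 5 rows. The HSP90 median was 0.24 without both replicate 1 libraries and male 2. The small heat shock protein median was −0.066 with a mean of at least 5 CPM (fewer genes), −0.17 with quantile scaling, −0.81 with array weights, −0.12 without both replicate 1 libraries and 0.057 also without male 2, and leaving out 1 library gave −0.66 to −0.11. The class A median was 0.20 with median ratio and 0.18 with TMM scaling. The ratio of Hsp90aa1 to Hsp90ab1 turned to −0.010 without male 4 (−0.010 to 0.21 over the libraries left out) and Hspd1 to Hspe1 to −0.092 without both replicate 1 libraries and male 2. Of 795 values of 38 single genes, 733 kept direction and side, 38 passed the threshold and 24, in 9 genes, changed sign. Without both replicate 1 libraries and male 2 these were Hsph1 (0.057), Hspe1 (0.21), Hspa1a (0.15), Hspa1b (0.14), Bag2 (0.066), Dnajb6 (−0.23) and Dnajb14 (0.00473). Without both replicate 1 libraries alone, Dnajb6 was −0.10 and Dnajb14 0.043. Quantile scaling gave Hspa5 −0.13, Hspa1a 0.048 and Dnajb14 0.029, median ratio scaling Dnajb14 0.19, TMM scaling 0.17, and array weights Dnajb14 0.018 and Dnajc8 −0.16. Leaving out 1 library turned Hspa5 to between −0.031 and −0.013, Dnajb14 to between 0.051 and 0.094 and Dnajc8 to between −0.23 and −0.15.

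Same-numbered libraries did not deviate together in each pair (correlations −0.305, 0.697, −0.152 and 0.438). The tests above do not pair libraries by number, and whether same-numbered libraries were handled together was not tested. With the replicate number as a block, 0 members and 0 rows passed, and the ratio differences stayed at 0.08, 0.99 and −1.69 (exact sign-flip adjusted p = 0.75, 0.5625 and 0.5625). With 4 pairs the sign-flip test cannot reach 0.05.

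The planned count model was not run because a small share of the values is fractional. Without the filter on low values 79 members were tested and 0 passed. A difference of under 3 reads, worth up to 0.400 CPM, was not detectable at this depth.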
